A study of Homo sapiens with 12 samples.

Results

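The plasma membrane and organelle solute carrier genes were taken as all rows of the count table whose symbol begins with SLC and a family number, leaving out the mitochondrial SLC25 family and 16 carriers of amino acids, glucose, lactate and iron that had been taken out by name. This gave 154 genes of the 10945 with a symbol. Of these, 146 encode carriers of 41 families, and 8 match the rule by symbol alone: antisense and opposite-strand genes, scaffold and adaptor proteins, and a transcription factor.

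Solute carriers are membrane proteins that move ions, nutrients, vitamins, metals and waste products across the plasma membrane and the membranes of organelles. They work by facilitated diffusion or by coupling the movement of their substrate to that of sodium, protons or another solute, and they are sorted into families by sequence. In hepatocytes they bring in sugars, amino acids, fatty acids and organic ions from blood, return glucose to it, pass bile salts on, and feed nucleotide sugars to the Golgi apparatus.

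The cells were HepG2, a human line derived from a liver tumour that stands in for hepatocytes, of WT genotype by its label. They were kept and seeded in EMEM (Eagle's minimum essential medium) and after 24 h were given Plasmax, a medium made to resemble human plasma, high-glucose DMEM (HGDMEM), low-glucose DMEM (LGDMEM) or fresh EMEM. Every medium held 10% heat-inactivated fetal bovine serum and was renewed after 48 h, and cells were harvested at 96 h, so every group had spent its first day in EMEM. Each medium had 3 libraries made with a 3′ mRNA kit, 12 in all. The question put here is which solute carrier genes differed in RNA level between the media; the series as a whole concerns iron availability and the fate of hepatocytes.

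The deposited counts summed to 4131093 to 6015796 per library, and the solute carrier genes took 0.533% to 0.590% of those on named genes. All 154 were tested. Levels are in CPM, the reads of a gene scaled to a common library size and composition, errors are SD over 3 libraries, and a gene is said to have risen or fallen where edgeR's quasi-likelihood test gave an adjusted p under 0.05 over all 10945 genes. A kit that reads the 3′ end gives about 1 tag per transcript, so CPM was not divided by gene length and levels of different genes are compared only roughly. No source says whether libraries of 1 medium stem from independent cultures, so the spread behind the p-values may be technical. A lower level in bulk RNA can come from fewer cells with the transcript or from less of it per cell, and these cannot be told apart. LGDMEM 3 stood apart from the other libraries on the second principal component of the solute carrier genes (−6.93, where the other 11 lay between −2.26 and 2.76). All 9 hepatocyte markers were detected, with summed levels of 12377 to 14277 CPM in Plasmax, 20956 to 23599 CPM in HGDMEM, 19681 to 21527 CPM in LGDMEM and 18873 to 19802 CPM in EMEM. Of the leukocyte markers, CD14, LYZ and CD68 had rows and summed to 1966 to 2194 CPM in Plasmax, 2710 to 3159 CPM in HGDMEM, 2122 to 2885 CPM in LGDMEM and 2657 to 3294 CPM in EMEM, while PTPRC and CD3E had none. Of the endothelial and stromal markers, COL1A1 and PDGFRB had rows, at a sum of 10.5 to 11.8 CPM in Plasmax, 3.64 to 12.3 CPM in HGDMEM, 4.80 to 14.9 CPM in LGDMEM and 11.2 to 12.8 CPM in EMEM. Mitochondrial transcripts took 12.3% to 14.1% of counts in Plasmax and 9.80% to 12.3% in the other media. The lower hepatocyte sum and the mitochondrial share moved with Plasmax, and their part in the differences below was not tested.

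As a whole the solute carrier genes were modestly expressed, with a median of 17.6 CPM over the 12 libraries and a range of 1.48 to 315 CPM. Of the 154, 47 averaged under 10 CPM and 16 reached 100 CPM. The 8 highest were SLC17A9 (vesicular nucleotide transporter), SLC16A1 (the lactate and pyruvate carrier MCT1), SLC2A8 (an intracellular hexose carrier), SLC2A4RG (a DNA-binding regulator of the SLC2A4 gene, no carrier), SLC5A6 (sodium-coupled uptake of biotin and pantothenate), SLC39A1 (zinc uptake), SLC20A1 (sodium-coupled phosphate uptake) and SLC23A2 (sodium-coupled vitamin C uptake). Summed over all 154 genes the level was 5643, 5385 and 5226 CPM in Plasmax, 5821, 5641 and 5712 CPM in HGDMEM, 5619, 5693 and 5971 CPM in LGDMEM and 5629, 5718 and 5730 CPM in EMEM. Plasmax 1 overlapped the other media in this sum, and Plasmax 2 and 3 lay below them.

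Against EMEM, 8 of the 154 genes rose in Plasmax and 22 fell. Over all genes tested, 22.1% were called, 10% up and 12.1% down, so the falls stood near that background and the rises below it. Against LGDMEM, 9 rose and 18 fell, where 9.48% and 11.7% of all genes did (21.2% together), and against HGDMEM 18 rose and 24 fell, where 12.8% and 14.1% did (26.9% together). The median log2 fold change of the 154 genes was −0.04 against EMEM, −0.17 against LGDMEM and −0.16 against HGDMEM, while that of all genes was 0.02, 0.00 and 0.01. The CPM values of Plasmax and EMEM did not overlap for 61 of the 154, against 39.4% of all genes. They did not overlap for 60 between Plasmax and LGDMEM and for 68 between Plasmax and HGDMEM, against 36.2% and 42.6% of all genes. Over the 4 media at once, 31 differed, against 22.9% of all genes.

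The 3 comparisons share the Plasmax libraries, so their calls are not independent of each other. In all 3, SLC6A11, SLC23A2 and the antisense RNA SLC16A1-AS1 rose, and SLC2A4RG, SLC2A9, SLC9A3R1, SLC13A3, SLC13A5, SLC17A9, SLC23A1, SLC29A4, SLC37A4 and SLC39A1 fell. A further 9 rose and 9 fell in exactly 2 comparisons, and 8 rose and 16 fell in exactly 1. No gene rose in one of these comparisons and fell in another, and 99 were called in none. The same counts were not taken over all genes, so whether they are particular to the 154 is not known. The first principal component of the 154 genes held 33.2% of their variance, with the Plasmax libraries between −7.01 and −5.09 and the others between 0.11 and 3.84.

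**Figure D1:**
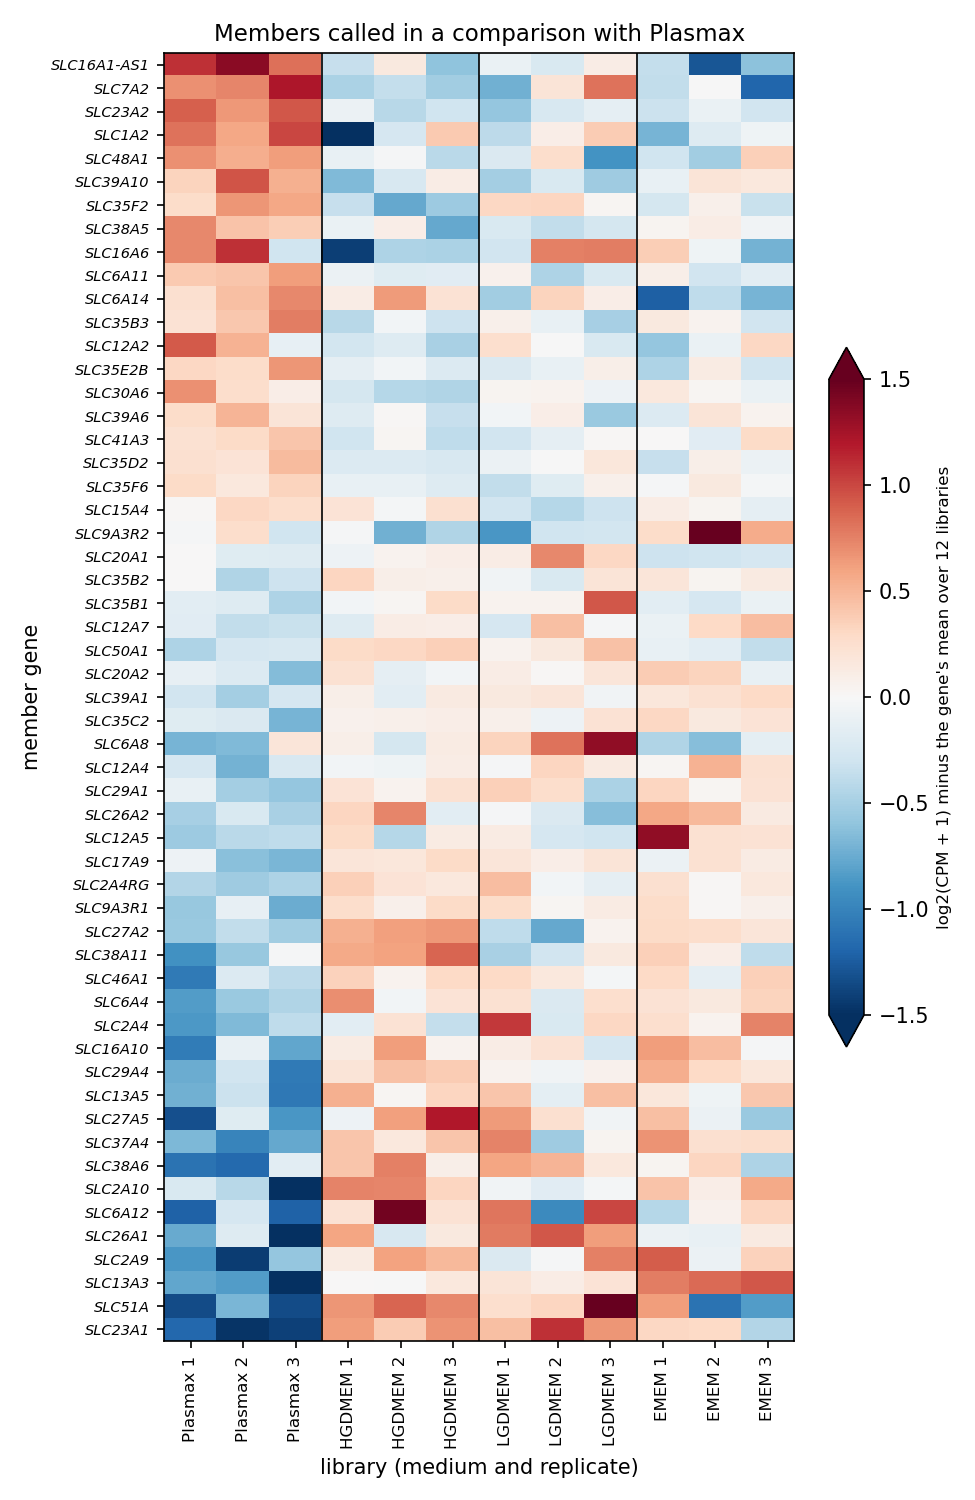
Heat map of the 55 genes called in at least 1 comparison with Plasmax (rows) across the 12 libraries (columns, by medium and replicate). Colour is log2(CPM + 1) minus the gene's mean over the 12 libraries, rows are ordered by the mean of the Plasmax libraries, and the 3 Plasmax columns stand apart from the other 9 at the top and bottom of the plot.

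The promoters below, 250 bases before to 50 after the gene's start, are shown because they belong to called genes: SLC6A11 rose and SLC37A4 fell in every comparison with Plasmax, and SLC29A1, SLC26A2 and SLC12A7 are the genes fallen in Plasmax against EMEM in which an E-box was found. They are RefSeq sequences of build GRCh38.p14, while the submitters' notes name hg19 for the counts, which carry no coordinates. Each is written 5′ to 3′ on the strand of its gene, with the E-box (CACGTG, the same on both strands) in capitals; where RefSeq gives several starts, the first listed was used.
SLC6A11 promoter, chr3:10815978-10816277, plus strand: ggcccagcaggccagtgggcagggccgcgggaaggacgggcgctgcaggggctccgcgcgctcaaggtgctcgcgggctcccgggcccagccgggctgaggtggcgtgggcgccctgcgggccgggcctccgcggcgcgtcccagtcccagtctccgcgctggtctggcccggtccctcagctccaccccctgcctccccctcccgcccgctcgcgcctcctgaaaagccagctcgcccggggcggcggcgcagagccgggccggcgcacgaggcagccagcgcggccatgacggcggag
SLC37A4 promoter, chr11:119030828-119031127, minus strand: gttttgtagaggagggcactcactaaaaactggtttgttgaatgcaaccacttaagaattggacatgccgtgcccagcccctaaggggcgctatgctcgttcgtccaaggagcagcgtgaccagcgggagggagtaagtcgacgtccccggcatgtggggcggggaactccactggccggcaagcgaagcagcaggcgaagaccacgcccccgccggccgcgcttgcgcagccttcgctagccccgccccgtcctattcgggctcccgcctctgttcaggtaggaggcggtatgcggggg
SLC29A1 promoter, chr6:44219365-44219664, plus strand: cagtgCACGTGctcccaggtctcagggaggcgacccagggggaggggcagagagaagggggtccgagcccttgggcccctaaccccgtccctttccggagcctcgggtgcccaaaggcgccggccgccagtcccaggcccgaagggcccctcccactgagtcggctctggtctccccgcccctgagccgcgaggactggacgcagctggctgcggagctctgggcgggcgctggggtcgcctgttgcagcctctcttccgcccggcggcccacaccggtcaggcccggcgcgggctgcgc
SLC26A2 promoter, chr5:149960508-149960807, plus strand: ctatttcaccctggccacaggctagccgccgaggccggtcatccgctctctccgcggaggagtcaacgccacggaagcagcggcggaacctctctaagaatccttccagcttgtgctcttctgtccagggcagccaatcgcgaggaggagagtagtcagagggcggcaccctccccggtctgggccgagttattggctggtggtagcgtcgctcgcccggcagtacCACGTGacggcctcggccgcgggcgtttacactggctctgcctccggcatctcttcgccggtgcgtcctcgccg
SLC12A7 promoter, chr5:1112014-1112313, minus strand: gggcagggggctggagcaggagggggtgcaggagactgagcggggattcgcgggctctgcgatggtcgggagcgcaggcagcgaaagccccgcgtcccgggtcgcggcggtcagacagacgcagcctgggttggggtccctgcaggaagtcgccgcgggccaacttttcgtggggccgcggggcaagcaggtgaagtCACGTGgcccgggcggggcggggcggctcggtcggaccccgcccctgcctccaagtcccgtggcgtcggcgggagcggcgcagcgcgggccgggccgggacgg

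A promoter was found for 124 of the 154 genes. An E-box stood in 11 of these 124 windows (8.87%) and in 2030 of all 27305 promoters of this length (7.43%). It was present in 3 of the 17 windows of genes that fell in Plasmax against EMEM and in 0 of 5 of those that rose. On both strands, the sterol regulatory element TCACNCCAC was found in 1 of the 124 windows and in 1.15% of all promoters, and the amino acid response element TGATGNAAN in 3 windows and in 3.67% of all. The short metal response element TGCNCNC matched 83 of the 124 windows (66.9%) and 55.2% of all promoters. These are letter matches, not binding sites.

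Both sodium-coupled carriers of di- and tricarboxylates, SLC13A3 and SLC13A5, fell in Plasmax in all 3 comparisons. SLC13A3 encodes NaDC3, which couples the uptake of succinate, alpha-ketoglutarate and similar dicarboxylates to sodium. It had 59.5, 57.1 and 33.1 CPM in Plasmax, 103, 102 and 114 CPM in HGDMEM, 117, 111 and 119 CPM in LGDMEM and 175, 185 and 196 CPM in EMEM. The 4 media lay in order, with Plasmax lowest, both DMEM media between and EMEM highest, and only the 2 DMEM media overlapped. In Plasmax against EMEM its level fell (log2 fold change −1.90 with an SE of 0.17, adjusted p = 4.67e-07). Against LGDMEM the log2 fold change was −1.21 (adjusted p = 7.07e-05), and against HGDMEM it was −1.09 (adjusted p = 0.000122). SLC13A5, the citrate carrier NaCT of the hepatocyte plasma membrane, had 26.6, 35.3 and 20.5 CPM in Plasmax, 64.7, 45.2 and 55.4 CPM in HGDMEM, 59.3, 39.9 and 60.9 CPM in LGDMEM and 49.8, 42.4 and 59.1 CPM in EMEM. All 3 Plasmax libraries were below all 9 others, and the other media overlapped. It fell in Plasmax against EMEM (log2 fold change −0.87 with an SE of 0.22, adjusted p = 0.00867), with −0.95 (adjusted p = 0.00497) against LGDMEM and −1.0 (adjusted p = 0.00257) against HGDMEM. The call against EMEM was lost without Plasmax 3 (adjusted p = 0.0519).

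The monocarboxylate carriers (SLC16) did not move together. SLC16A1, which exchanges lactate and pyruvate with the medium, had 256 ± 25.2 CPM in Plasmax and 262 ± 3.95 CPM in EMEM and did not pass the test (log2 fold change −0.04, adjusted p = 0.864). The RNA transcribed opposite to it, SLC16A1-AS1, had 25.5, 30.7 and 21.1 CPM in Plasmax, 8.81, 12.7 and 7.19 CPM in HGDMEM, 10.6, 9.63 and 12.5 CPM in LGDMEM and 8.74, 4.09 and 7.15 CPM in EMEM. The Plasmax libraries were above all others, with a log2 fold change against EMEM of 1.97 (SE 0.32, adjusted p = 0.000243), of 1.24 (adjusted p = 0.00663) against LGDMEM and of 1.42 (adjusted p = 0.00192) against HGDMEM. The sources used here do not say whether counting used strand, so reads of this RNA and of its neighbour may be mixed. SLC16A10, a family member that carries aromatic amino acids, had 6.39, 13.1 and 7.85 CPM in Plasmax, 15.6, 22.5 and 14.8 CPM in HGDMEM, 15.4, 16.7 and 11.8 CPM in LGDMEM and 22.6, 19.9 and 14.1 CPM in EMEM. It fell in Plasmax against EMEM (log2 fold change −1.04 with an SE of 0.30, adjusted p = 0.0193) and against HGDMEM (log2 fold change −0.95, adjusted p = 0.0262), where the groups did not overlap, while Plasmax and LGDMEM overlapped (−0.68, adjusted p = 0.129). The call against EMEM was lost without Plasmax 1, Plasmax 3, EMEM 1 or EMEM 2 (adjusted p between 0.0518 and 0.0855), and that against HGDMEM without Plasmax 1, Plasmax 3 or HGDMEM 2 (adjusted p between 0.0894 and 0.125). SLC16A6, a carrier of ketone bodies and taurine, rose against HGDMEM (log2 fold change 1.47, adjusted p = 0.0161), with 0.13 (adjusted p = 0.860) against LGDMEM and 0.74 (adjusted p = 0.220) against EMEM. Its call was lost without Plasmax 2 or HGDMEM 1 (adjusted p between 0.0786 and 0.0982).

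The sodium-coupled phosphate carriers differed between media in different ways. SLC20A2 averaged 60.0 ± 11.5 CPM in Plasmax and 86.8 ± 15.5 CPM in EMEM, and fell in Plasmax against EMEM (log2 fold change −0.53 with an SE of 0.17, adjusted p = 0.0316). This call was lost without Plasmax 2, Plasmax 3, EMEM 1 or EMEM 2 (adjusted p between 0.0513 and 0.151). SLC20A1 had 144, 126 and 124 CPM in Plasmax, 135, 148 and 153 CPM in HGDMEM, 154, 235 and 176 CPM in LGDMEM and 115, 116 and 119.7 CPM in EMEM, so LGDMEM was above the other media. It fell in Plasmax against LGDMEM (log2 fold change −0.52 with an SE of 0.14, adjusted p = 0.0139), while against EMEM its log2 fold change was 0.17 (adjusted p = 0.447). The LGDMEM call was lost without Plasmax 2, Plasmax 3 or LGDMEM 2 (adjusted p between 0.0529 and 0.0977). In all, 0 of the 9 genes for carboxylates and phosphate rose and 4 fell against EMEM (0% and 44.4%, beside 10% and 12.1% of all genes). The median of the 9 genes was −0.04 on the log2 scale. Their summed level was 592, 609 and 479 CPM in Plasmax, 649, 623 and 669.8 CPM in HGDMEM, 655, 729 and 708 CPM in LGDMEM and 737, 741 and 728 CPM in EMEM.

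**Figure D2:**
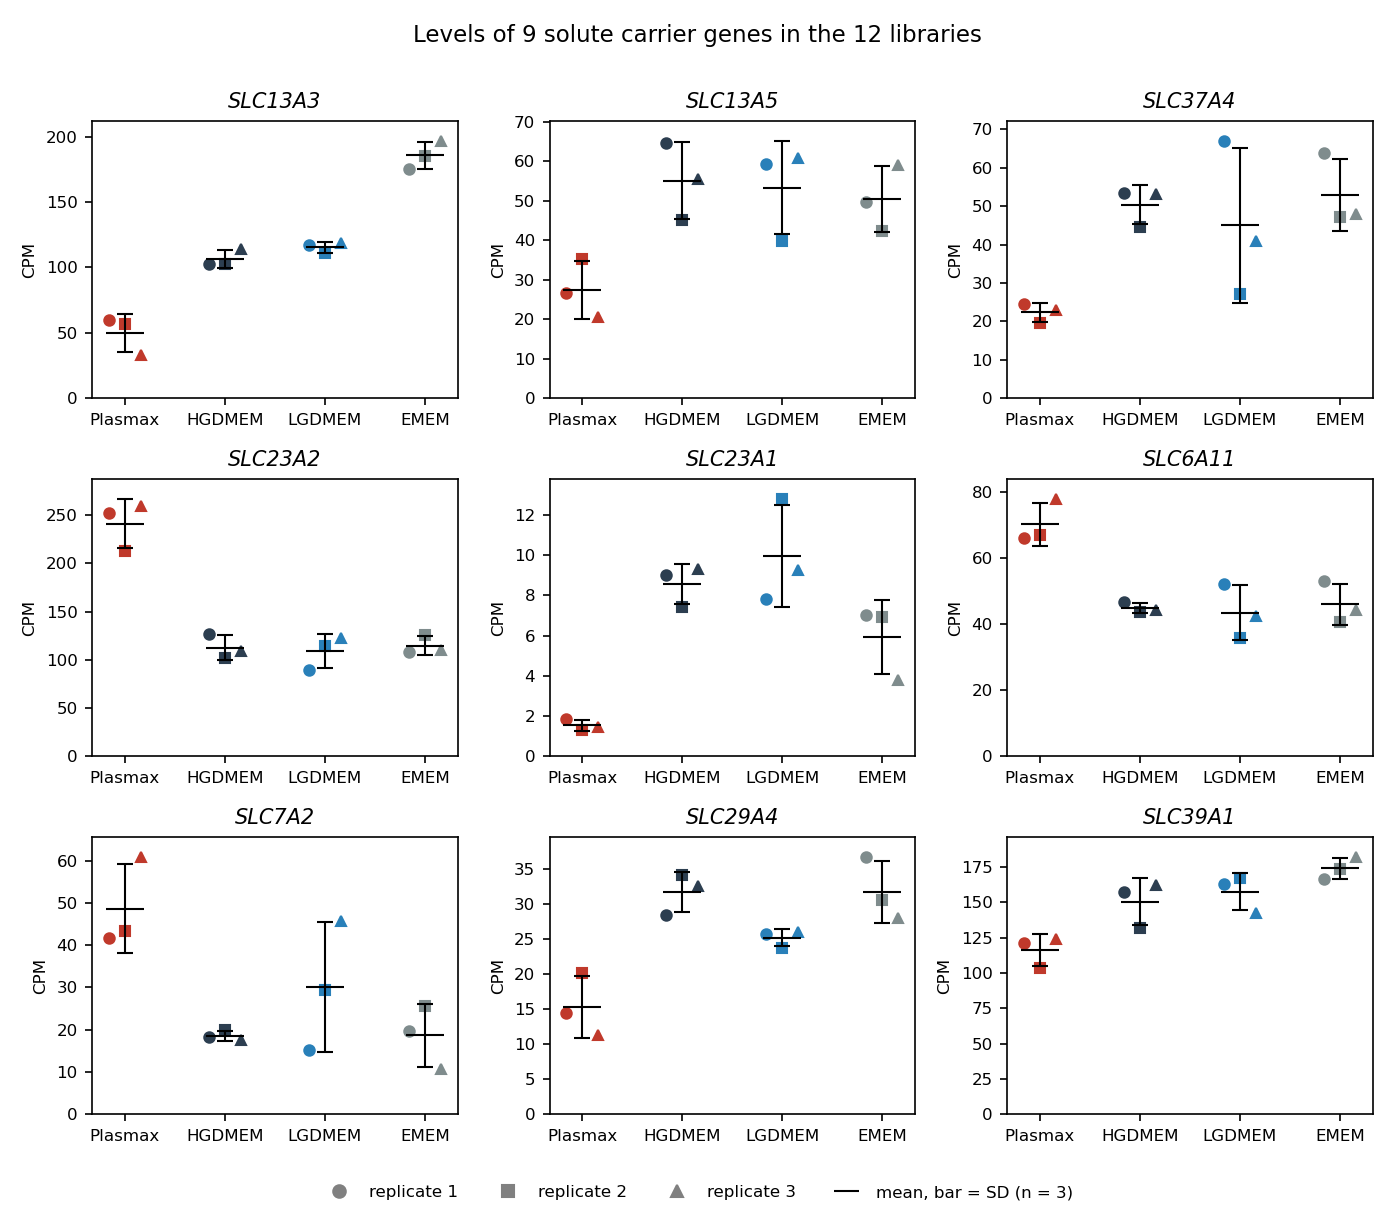
Level of 9 solute carrier genes (CPM, linear axes starting at 0) in each library of the 4 media; symbols mark replicates, and the line and bar give mean and SD of 3 libraries. SLC23A2, SLC6A11 and SLC7A2 average highest in Plasmax, and the other 6 genes lowest; only SLC7A2 has an LGDMEM library within the Plasmax range.

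Among the sugar carriers, without those taken out by name, 0 of 14 rose and 4 fell in Plasmax against EMEM (0% and 28.6%, beside 10% and 12.1% of all genes). The median of the 14 was −0.45 on the log2 scale. Against LGDMEM and HGDMEM 0 rose and 4 fell as well, with medians of −0.67 and −0.63. Of all genes 9.48% rose and 11.7% fell against LGDMEM, and 12.8% and 14.1% against HGDMEM. The group is small, and whether it differs from all genes was not tested. SLC37A4 encodes the glucose-6-phosphate translocase of the endoplasmic reticulum, which feeds glucose-6-phosphatase in gluconeogenesis and glycogen breakdown. It had 24.5, 19.5 and 22.9 CPM in Plasmax, 53.5, 44.5 and 53.1 CPM in HGDMEM, 66.9, 27.1 and 41 CPM in LGDMEM and 63.8, 47.2 and 48 CPM in EMEM. Every Plasmax library was below every other library, although LGDMEM 2 came close, and the level fell against EMEM (log2 fold change −1.24 with an SE of 0.25, adjusted p = 0.00169), LGDMEM (−1.0, adjusted p = 0.00811) and HGDMEM (−1.17, adjusted p = 0.00199). The call against LGDMEM was lost without LGDMEM 1 (adjusted p = 0.0705). SLC2A9, a carrier of urate, had 2.68, 1.52 and 3.51 CPM in Plasmax, 6.38, 9.27 and 8.46 CPM in HGDMEM, 4.80, 5.70 and 10.4 CPM in LGDMEM and 11.7, 5.34 and 7.57 CPM in EMEM. Its Plasmax libraries were below the others in all 3 comparisons, and it fell against EMEM (log2 fold change −1.66, adjusted p = 0.0155), LGDMEM (−1.44, adjusted p = 0.0350) and HGDMEM (−1.64, adjusted p = 0.0130). Its call against EMEM was lost without Plasmax 2 or EMEM 1 (adjusted p between 0.0698 and 0.0898), the LGDMEM call without Plasmax 1, Plasmax 2 or LGDMEM 3, and under limma voom and in a fit to the 2 media alone (adjusted p between 0.0733 and 0.164) and the HGDMEM call without Plasmax 2 (adjusted p = 0.0611).

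SLC2A4, the insulin-responsive glucose carrier GLUT4 of muscle and fat, had low levels of 5.97, 7.01 and 8.68 CPM in Plasmax, 10.3, 13.7 and 8.88 CPM in HGDMEM, 25.5, 9.83 and 14.7 CPM in LGDMEM and 14.1, 12.1 and 20.2 CPM in EMEM. Plasmax did not overlap any other medium, and SLC2A4 fell against EMEM (log2 fold change −1.09 with an SE of 0.35, adjusted p = 0.0310) and LGDMEM (−1.20, adjusted p = 0.0205) but did not pass the test against HGDMEM (−0.61, adjusted p = 0.222). The difference from EMEM lost its call without Plasmax 1, Plasmax 2, EMEM 1 or EMEM 3, and under limma voom (adjusted p between 0.0530 and 0.146), and the LGDMEM call without Plasmax 1, Plasmax 2 or LGDMEM 1, and under limma voom (adjusted p between 0.0587 and 0.162). SLC2A4RG, named for its binding to the SLC2A4 gene, had 122, 114 and 119.7 CPM in Plasmax, 212, 189.7 and 184 CPM in HGDMEM, 227, 159.6 and 149.9 CPM in LGDMEM and 195, 167 and 184 CPM in EMEM, and fell against EMEM (log2 fold change −0.62 with an SE of 0.15, adjusted p = 0.00504), LGDMEM (−0.60, adjusted p = 0.00699) and HGDMEM (−0.72, adjusted p = 0.00126). The LGDMEM call was lost without LGDMEM 1 (adjusted p = 0.0511). SLC2A10 averaged 4.51 ± 2.86 CPM in Plasmax and 10.6 ± 1.86 CPM in EMEM, a log2 fold change of −1.22 (adjusted p = 0.0464), a call lost without Plasmax 2, Plasmax 3 or any single EMEM library, and in a fit to the 2 media alone (adjusted p between 0.0517 and 0.133). Against HGDMEM it also fell (−1.48, adjusted p = 0.0137), and against LGDMEM the difference was −0.70 (adjusted p = 0.270).

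The glucose carriers SLC2A1 and SLC2A3, taken out by name, averaged 843 and 239 CPM over all libraries, above SLC2A8 at 235 CPM. In Plasmax, SLC2A1 rose and SLC2A3 fell against EMEM, LGDMEM and HGDMEM. Of the sugar carriers kept, SLC2A8 was the most abundant. It did not pass any test of Plasmax against another medium, with 246 ± 14.3 CPM in Plasmax and 229 ± 18.2 CPM in EMEM. Neither did SLC2A2, named here after its values were seen, which encodes GLUT2, the main glucose carrier of hepatocytes, at 20.1 ± 3.25 CPM in Plasmax and 17.1 ± 3.13 CPM in EMEM (log2 fold change 0.23, adjusted p = 0.579). SLC50A1, the human member of the SWEET sugar carriers, had 17.3, 20.1 and 20.3 CPM in Plasmax, 29.8, 30.1 and 31.3 CPM in HGDMEM, 25.2, 26.9 and 33.3 CPM in LGDMEM and 22.3, 21.5 and 18.5 CPM in EMEM. Plasmax and EMEM overlapped, and both DMEM media lay above both of them. It fell in Plasmax against HGDMEM (log2 fold change −0.66, adjusted p = 0.0145) and against LGDMEM (−0.57, adjusted p = 0.0414). The HGDMEM call was lost without Plasmax 1 (adjusted p = 0.0568). The LGDMEM call was lost without any single Plasmax library, LGDMEM 2 or LGDMEM 3, and under upper-quartile scaling, with library size as the only scaling, under limma voom and in a fit to the 2 media alone (adjusted p between 0.0504 and 0.149).

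**Figure D3:**
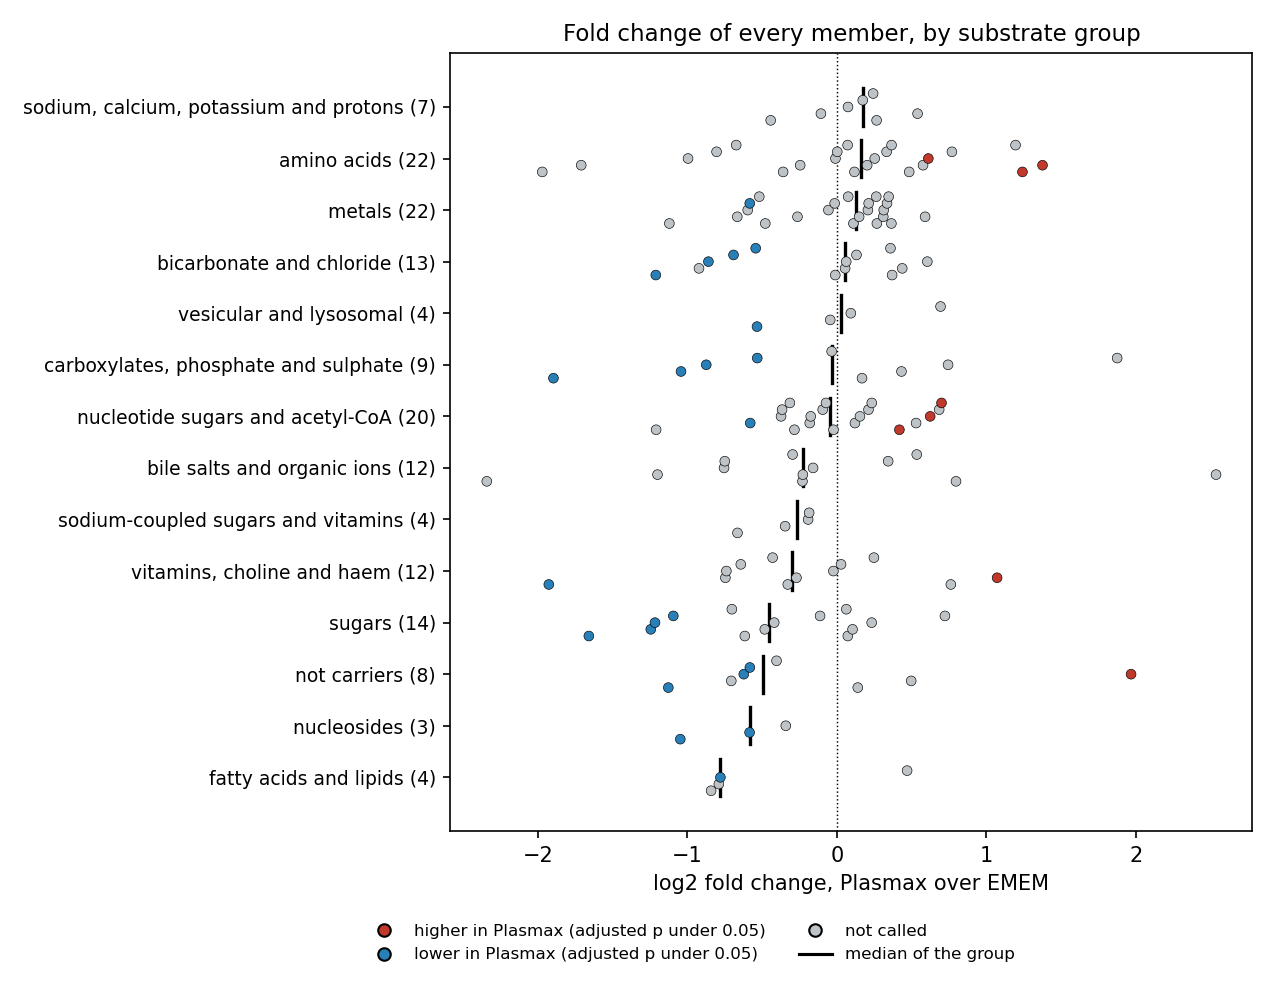
Log2 fold change of each of the 154 genes in Plasmax over EMEM (horizontal axis), by substrate group (rows, with the number of genes), ordered by the group's median (black line). The 8 genes that rose lie in 4 rows, amino acids, nucleotide sugars, vitamins and the 8 symbols that are not carriers. No gene of any other row rose, metals (0 of 22) and sugars (0 of 14) among them. Over all genes 10% rose, and no group was tested against that share.

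The 2 vitamin C carriers moved in opposite directions in every comparison with Plasmax. SLC23A2 encodes SVCT2, the form found in most tissues, and had 252, 212 and 259 CPM in Plasmax, 127, 101 and 109.6 CPM in HGDMEM, 89.9, 115 and 123 CPM in LGDMEM and 108, 126 and 110.2 CPM in EMEM. Every Plasmax library was above every other library, and the other 3 media overlapped throughout. It rose against EMEM (log2 fold change 1.07 with an SE of 0.14, adjusted p = 4.00e-05), LGDMEM (1.14, adjusted p = 2.21e-05) and HGDMEM (1.10, adjusted p = 2.07e-05). SLC23A1 encodes SVCT1, the epithelial form of liver, intestine and kidney, and was scarce. It had 1.85, 1.33 and 1.45 CPM in Plasmax, 9.00, 7.45 and 9.31 CPM in HGDMEM, 7.82, 12.8 and 9.28 CPM in LGDMEM and 7.04, 6.94 and 3.79 CPM in EMEM. The Plasmax libraries, at 9, 7 and 7 reads, lay below all others, and SLC23A1 fell against EMEM (log2 fold change −1.93 with an SE of 0.44, adjusted p = 0.00392), LGDMEM (−2.68, adjusted p = 0.000241) and HGDMEM (−2.46, adjusted p = 0.000352). Both calls against EMEM held with each library left out.

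Among the other carriers of vitamins, choline and haem, SLC48A1, which moves haem out of endosomes and lysosomes, had 26.4, 23.9 and 25.2 CPM in Plasmax, 14.8, 15.9 and 11.8 CPM in HGDMEM, 13.6, 19.5 and 8.15 CPM in LGDMEM and 12.9, 10.9 and 20.8 CPM in EMEM. The Plasmax libraries were above all others. It rose against LGDMEM (log2 fold change 0.86, adjusted p = 0.0462) and HGDMEM (0.82, adjusted p = 0.0461) and missed the threshold against EMEM (0.76, adjusted p = 0.0737). The LGDMEM call was lost without any single Plasmax library, LGDMEM 1 or LGDMEM 3, and under the replicate block and in a fit to the 2 media alone (adjusted p between 0.0539 and 0.166), and the HGDMEM call without any single Plasmax library or any single HGDMEM library, and with library size as the only scaling and under the replicate block (adjusted p between 0.0548 and 0.150). SLC46A1, the proton-coupled folate carrier, averaged 9.82 ± 3.08 CPM in Plasmax, 17.1 ± 1.97 CPM in HGDMEM, 16 ± 1.94 CPM in LGDMEM and 16.6 ± 3.11 CPM in EMEM. It fell against HGDMEM (−0.80, adjusted p = 0.0379), a call lost without Plasmax 1, Plasmax 3, HGDMEM 1 or HGDMEM 3, and in a fit to the 2 media alone (adjusted p between 0.0516 and 0.156), and missed the threshold against EMEM (−0.75, adjusted p = 0.0606) and LGDMEM (−0.70, adjusted p = 0.0809). SLC5A6, grouped with the SLC5 family of which 0 of 4 genes were called, averaged 135 ± 15.7 CPM in Plasmax and 155 ± 8.96 CPM in EMEM and was not called (log2 fold change −0.19, adjusted p = 0.376). Of the 12 genes in this group, 1 rose and 1 fell against EMEM, both of the SLC23 family, and the median was −0.30 on the log2 scale. Each is 8.33% of the 12, beside 10% and 12.1% of all genes that rose and fell.

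Of the 22 amino acid and related carriers, 3 rose and 0 fell in Plasmax against EMEM (13.6% and 0%, beside 10% and 12.1% of all genes). The median was 0.16 on the log2 scale. Against LGDMEM 3 rose and 2 fell (13.6% and 9.09%, beside 9.48% and 11.7% of all genes). Against HGDMEM 4 rose and 4 fell (18.2% each, beside 12.8% and 14.1%). The summed level of the 22 was 608, 614 and 618 CPM in Plasmax, 514, 539 and 461 CPM in HGDMEM, 478, 484 and 574 CPM in LGDMEM and 484, 480.2 and 461 CPM in EMEM, so Plasmax was above every other library. Genes for several of the best known amino acid carriers are not among these 22, having been taken out by name. SLC7A2 encodes CAT2, a carrier of arginine, lysine and ornithine, and had 41.8, 43.4 and 60.8 CPM in Plasmax, 18.2, 19.9 and 17.6 CPM in HGDMEM, 15.1, 29.5 and 45.7 CPM in LGDMEM and 19.7, 25.6 and 10.7 CPM in EMEM. Plasmax was above EMEM and HGDMEM without overlap, but LGDMEM 3 reached the Plasmax range. It rose against EMEM (log2 fold change 1.37 with an SE of 0.32, adjusted p = 0.00509) and HGDMEM (1.39, adjusted p = 0.00364) and was not called against LGDMEM (0.69, adjusted p = 0.133). SLC6A14, a sodium- and chloride-coupled carrier of neutral and cationic amino acids, had 37.9, 44.2 and 53.3 CPM in Plasmax, 34.5, 50.3 and 37.2 CPM in HGDMEM, 22, 40.7 and 34.4 CPM in LGDMEM and 13.1, 24.4 and 19.4 CPM in EMEM. EMEM averaged lowest, and Plasmax overlapped both DMEM media but not EMEM. It rose in Plasmax against EMEM (log2 fold change 1.24 with an SE of 0.25, adjusted p = 0.00191), while the log2 fold change was 0.47 (adjusted p = 0.191) against LGDMEM and 0.15 (adjusted p = 0.701) against HGDMEM.

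SLC6A11 encodes GAT3, which takes up GABA, taurine and beta-alanine with sodium and chloride. It had 65.9, 66.9 and 77.7 CPM in Plasmax, 46.7, 43.7 and 44.2 CPM in HGDMEM, 52.2, 35.8 and 42.3 CPM in LGDMEM and 52.9, 40.8 and 44.4 CPM in EMEM. Every Plasmax library was above every other one, and it rose against EMEM (log2 fold change 0.61 with an SE of 0.17, adjusted p = 0.0136), LGDMEM (0.69, adjusted p = 0.00636) and HGDMEM (0.65, adjusted p = 0.00771). Against EMEM the call was lost without Plasmax 3 or EMEM 2 (adjusted p between 0.0574 and 0.0615). Its promoter, printed above, held no E-box. SLC38A5, a carrier of glutamine, asparagine, histidine and serine, had 147, 119 and 115 CPM in Plasmax, 82.7, 95.2 and 51.6 CPM in HGDMEM, 75.7, 68.6 and 73.8 CPM in LGDMEM and 91, 96.1 and 85.6 CPM in EMEM. Plasmax was again above all others, and SLC38A5 rose against LGDMEM (log2 fold change 0.81, adjusted p = 0.00340) and HGDMEM (0.73, adjusted p = 0.00505) but missed the threshold against EMEM (0.48, adjusted p = 0.0579). Its family member SLC38A6 went the other way, with 6.39, 6.07 and 13.2 CPM in Plasmax, 20.3, 25.8 and 15.9 CPM in HGDMEM and 23, 21.6 and 16.8 CPM in LGDMEM. SLC38A6 fell against LGDMEM (−1.26, adjusted p = 0.00911) and HGDMEM (−1.28, adjusted p = 0.00621), and with 15.3, 18.9 and 10.5 CPM in EMEM it overlapped Plasmax and was not called (−0.80, adjusted p = 0.0841).

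The remaining calls in this group were made in 1 comparison each. SLC1A2, the glial glutamate carrier also known in liver cells, rose against HGDMEM (log2 fold change 1.20, adjusted p = 0.0431), and SLC15A4, a lysosomal carrier of histidine and peptides, rose against LGDMEM (0.57, adjusted p = 0.0471). The SLC1A2 call was lost without any single Plasmax library, HGDMEM 1 or HGDMEM 2 (adjusted p between 0.0601 and 0.148), and the SLC15A4 call without Plasmax 2, Plasmax 3 or any single LGDMEM library, and under limma voom, under the replicate block and in a fit to the 2 media alone (adjusted p between 0.0564 and 0.137). The serotonin carrier SLC6A4 fell against HGDMEM (−1.09, adjusted p = 0.0400), as did the endosomal and lysosomal family member SLC38A11 (−1.44, adjusted p = 0.0447). These calls were lost without any single Plasmax library, HGDMEM 1 or HGDMEM 3, and under limma voom, under the replicate block and in a fit to the 2 media alone (adjusted p between 0.0532 and 0.189) for SLC6A4, and without Plasmax 1, Plasmax 2 or any single HGDMEM library, and under the replicate block (adjusted p between 0.0531 and 0.141) for SLC38A11. SLC6A12, the betaine and GABA carrier BGT1, fell against HGDMEM (adjusted p = 0.0461) and is given in reads, at 0, 5 and 0 in Plasmax, 9, 32 and 8 in HGDMEM, 12, 1 and 16 in LGDMEM and 3, 8 and 9 in EMEM. Its call was lost without Plasmax 1, Plasmax 3 or any single HGDMEM library, and under limma voom and under the replicate block (adjusted p between 0.0521 and 0.200). SLC6A8, the creatine carrier, fell in Plasmax against LGDMEM (−1.27, adjusted p = 0.00452), where LGDMEM stood above every other medium. Near-identical copies of SLC6A8 exist elsewhere in the genome, so its counts are uncertain.

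Nucleoside carriers fell in 2 of 3 cases against EMEM (66.7%, beside 12.1% of all genes), with a median of −0.58 on the log2 scale. SLC29A4 encodes PMAT, a carrier of monoamines and adenosine, and had 14.4, 20.1 and 11.4 CPM in Plasmax, 28.5, 34.1 and 32.6 CPM in HGDMEM, 25.7, 23.8 and 26 CPM in LGDMEM and 36.7, 30.6 and 28 CPM in EMEM. All Plasmax libraries were below all others, and it fell against EMEM (log2 fold change −1.05 with an SE of 0.22, adjusted p = 0.00204), LGDMEM (−0.71, adjusted p = 0.0255) and HGDMEM (−1.05, adjusted p = 0.00146). The LGDMEM call was lost without Plasmax 1, Plasmax 3, LGDMEM 1 or LGDMEM 3, and in a fit to the 2 media alone (adjusted p between 0.0520 and 0.116). SLC29A1 encodes ENT1, the main equilibrative nucleoside carrier of the plasma membrane, and averaged 75.9 ± 14.1 CPM in Plasmax, 111 ± 7.38 CPM in HGDMEM, 106 ± 30.1 CPM in LGDMEM and 114 ± 12 CPM in EMEM. It fell against EMEM (log2 fold change −0.58 with an SE of 0.19, adjusted p = 0.0304) and HGDMEM (−0.55, adjusted p = 0.0339). The EMEM call was lost without Plasmax 2, Plasmax 3, EMEM 1 or EMEM 3 (adjusted p between 0.0780 and 0.123), and the HGDMEM call without Plasmax 2, Plasmax 3, HGDMEM 1 or HGDMEM 3 (adjusted p between 0.0859 and 0.134). The E-box of its window lies at bases 6 to 11, at the far end from the gene's start.

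Of 22 metal carriers, 0 rose and 1 fell against EMEM (0% and 4.5%, beside 10% and 12.1% of all genes). The median was 0.13 on the log2 scale. Against LGDMEM 2 rose and 1 fell (9.09% and 4.5%, beside 9.48% and 11.7% of all genes). Against HGDMEM 4 rose and 1 fell (18.2% and 4.5%, beside 12.8% and 14.1%). The one that fell was SLC39A1, the zinc importer ZIP1, with 121, 103 and 124 CPM in Plasmax, 157, 132 and 162 CPM in HGDMEM, 163, 167 and 142 CPM in LGDMEM and 166, 174 and 182 CPM in EMEM. All Plasmax libraries were below all others, and it fell against EMEM (log2 fold change −0.58 with an SE of 0.13, adjusted p = 0.00327), LGDMEM (−0.44, adjusted p = 0.0201) and HGDMEM (−0.37, adjusted p = 0.0386). The HGDMEM call was lost without Plasmax 1, Plasmax 2, HGDMEM 1 or HGDMEM 3 (adjusted p between 0.0624 and 0.158), and the LGDMEM call without Plasmax 2, LGDMEM 1 or LGDMEM 2 (adjusted p between 0.0555 and 0.0965). SLC39A10, another zinc importer, had 10.3, 16.3 and 12 CPM in Plasmax, 4.69, 6.62 and 8.67 CPM in HGDMEM, 5.30, 6.68 and 5.21 CPM in LGDMEM and 7.28, 9.26 and 9.05 CPM in EMEM. Its Plasmax libraries were the highest, and it rose against LGDMEM (adjusted p = 0.0207) and HGDMEM (log2 fold change 0.95, adjusted p = 0.0416), with 0.59 (adjusted p = 0.220) against EMEM. Its LGDMEM call was lost without Plasmax 2, LGDMEM 1 or LGDMEM 3 (adjusted p between 0.0565 and 0.102), and its HGDMEM call without Plasmax 2, Plasmax 3, HGDMEM 1 or HGDMEM 2, and in a fit to the 2 media alone (adjusted p between 0.0520 and 0.175). SLC41A3, a magnesium carrier, rose against the same pair of media (log2 fold change 0.45, adjusted p = 0.0495 against LGDMEM and 0.52, adjusted p = 0.0187 against HGDMEM). These calls were lost without any single Plasmax library, LGDMEM 1 or LGDMEM 2, and under RLE scaling and in a fit to the 2 media alone (adjusted p between 0.0502 and 0.155) for LGDMEM, and without Plasmax 3, HGDMEM 1 or HGDMEM 3 (adjusted p between 0.0703 and 0.0879) for HGDMEM. The zinc carriers SLC30A6 of the Golgi (0.77, adjusted p = 0.00728) and SLC39A6 (0.51, adjusted p = 0.0466) rose against HGDMEM. These calls were lost without Plasmax 1 (adjusted p = 0.0522) for SLC30A6, and without any single Plasmax library, HGDMEM 1 or HGDMEM 3, and with library size as the only scaling (adjusted p between 0.0573 and 0.172) for SLC39A6. The zinc exporter SLC30A1, a textbook target of the zinc sensor MTF1 named here after its values were seen, averaged 71.7 ± 8.66 CPM in Plasmax and 56.9 ± 5.71 CPM in EMEM and was not called (0.33, adjusted p = 0.183).

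Chloride, bicarbonate and sulphate carriers were mixed, with 0 of 13 up, 4 down and a median of 0.05 on the log2 scale against EMEM. These are 0% and 30.8% of the 13, beside 10% and 12.1% of all genes. Of the 6 SLC12 genes, 3 of the potassium-chloride cotransporters that let cells shed salt and water fell. SLC12A4 (KCC1) had 17.3, 12.3 and 17.4 CPM in Plasmax, 20.1, 19.7 and 22.4 CPM in HGDMEM, 20.4, 26.1 and 22.9 CPM in LGDMEM and 21.1, 30.1 and 24.4 CPM in EMEM, with Plasmax below every other library. It fell against EMEM (log2 fold change −0.69 with an SE of 0.22, adjusted p = 0.0294), with −0.57 (adjusted p = 0.0758) against LGDMEM and −0.40 (adjusted p = 0.190) against HGDMEM, and the call was lost without Plasmax 2, EMEM 2 or EMEM 3 (adjusted p between 0.0599 and 0.132). SLC12A5 (KCC2, best known from neurons) had 8.03, 8.91 and 9.10 CPM in Plasmax, 15, 8.77 and 13.3 CPM in HGDMEM, 13.4, 10.0 and 9.74 CPM in LGDMEM and 32, 14.4 and 14.3 CPM in EMEM. It fell against EMEM (log2 fold change −1.21 with an SE of 0.33, adjusted p = 0.0139), with −0.34 (adjusted p = 0.520) against LGDMEM and −0.51 (adjusted p = 0.293) against HGDMEM. The difference rested on EMEM 1, without which it was −0.72, adjusted p = 0.143. SLC12A7 (KCC4) averaged 54.6 ± 4.14 CPM in Plasmax and 79.5 ± 15.4 CPM in EMEM (log2 fold change −0.54 with an SE of 0.19, adjusted p = 0.0427), a call lost without any single Plasmax library, EMEM 2 or EMEM 3, and with library size as the only scaling (adjusted p between 0.0560 and 0.181).

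The family member that brings chloride in with sodium and potassium, SLC12A2 (NKCC1), averaged 19 ± 6.88 CPM in Plasmax, 10.4 ± 1.19 CPM in HGDMEM, 13.4 ± 2.41 CPM in LGDMEM and 12.5 ± 4.06 CPM in EMEM. It rose against HGDMEM (0.87, adjusted p = 0.0452), a call lost without Plasmax 1, Plasmax 2 or any single HGDMEM library, and with library size as the only scaling, under limma voom and under the replicate block (adjusted p between 0.0513 and 0.229), and was not called against EMEM (0.60, adjusted p = 0.175). SLC26A2, the sulphate carrier needed for sulphation of cartilage proteoglycans, had 9.89, 12.1 and 9.92 CPM in Plasmax, 18.2, 24.5 and 12.7 CPM in HGDMEM, 14.1, 12.2 and 8.83 CPM in LGDMEM and 21.8, 20.5 and 15.8 CPM in EMEM. Plasmax and LGDMEM overlapped, and HGDMEM and EMEM lay above Plasmax. It fell against EMEM (log2 fold change −0.86 with an SE of 0.28, adjusted p = 0.0350) and HGDMEM (−0.80, adjusted p = 0.0426), with −0.13 (adjusted p = 0.787) against LGDMEM. Its call against EMEM was lost without any single Plasmax library, EMEM 1 or EMEM 2 (adjusted p between 0.0529 and 0.116), and the HGDMEM call without any single Plasmax library, HGDMEM 1 or HGDMEM 2, and under limma voom (adjusted p between 0.0568 and 0.220). SLC26A1, a sulphate and oxalate exchanger of liver and kidney, fell in Plasmax against LGDMEM (−1.82, adjusted p = 0.00798) and was not called against EMEM or HGDMEM.

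Fatty acid carriers (SLC27) had a median of −0.78 on the log2 scale against EMEM over 4 genes, of which 1 fell (25%, beside 12.1% of all genes). SLC27A2 encodes FATP2, a liver protein that takes up fatty acids and activates very long chain ones with coenzyme A. It had 9.06, 10.4 and 9.30 CPM in Plasmax, 20.3, 21.5 and 22.2 CPM in HGDMEM, 10.3, 7.67 and 14.3 CPM in LGDMEM and 17, 16.7 and 15.8 CPM in EMEM. Plasmax and LGDMEM overlapped at the low end, EMEM lay above them and HGDMEM above EMEM. It fell in Plasmax against EMEM (log2 fold change −0.78 with an SE of 0.26, adjusted p = 0.0357) and HGDMEM (−1.15, adjusted p = 0.00254), with −0.16 (adjusted p = 0.716) against LGDMEM. The difference from EMEM lost its call without any single Plasmax library or any single EMEM library, and in a fit to the 2 media alone (adjusted p between 0.0515 and 0.0927), while that against HGDMEM held in every setting. SLC27A5, which acts on bile acids in the liver, fell against HGDMEM (−1.53, adjusted p = 0.0111) at 5.20 ± 2.50 CPM in Plasmax and 15.2 ± 6.92 CPM in HGDMEM. That call was lost without Plasmax 1 or HGDMEM 3 (adjusted p between 0.0549 and 0.0796).

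None of the 12 carriers of bile salts and organic ions was called against EMEM, where 22.1% of all genes were. The median of the 12 was −0.23 on the log2 scale. SLC51A, 1 of the 2 subunits of the basolateral bile salt exporter OST, had 0, 3 and 0 reads in Plasmax, 16, 22 and 15 in HGDMEM, 8, 11 and 36 in LGDMEM and 12, 1 and 2 in EMEM. That is 3 reads of 14915221 in Plasmax, and it fell against HGDMEM (adjusted p = 0.0156) and LGDMEM (adjusted p = 0.0119), while the EMEM libraries overlapped those of Plasmax (adjusted p = 0.192). The HGDMEM call was lost without Plasmax 1 or Plasmax 3 (adjusted p between 0.0596 and 0.0607), and the LGDMEM call without Plasmax 3 or LGDMEM 3 (adjusted p between 0.0508 and 0.0624). The other subunit, SLC51B, was not called in any comparison with Plasmax. It had 14, 9 and 12 reads in Plasmax, 24, 28 and 17 in HGDMEM, 16, 13 and 19 in LGDMEM and 4, 12 and 4 in EMEM. Every HGDMEM library thus had more reads of it than every Plasmax library. The 7 carriers of sodium, calcium, potassium and protons had 0 calls in any of the 3 comparisons and a median of 0.17 on the log2 scale against EMEM. Of all genes 22.1% were called against EMEM, 21.2% against LGDMEM and 26.9% against HGDMEM.

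The 20 genes of the SLC33 and SLC35 families were grouped as carriers of nucleotide sugars and acetyl-CoA, which supply the Golgi and endoplasmic reticulum. The grouping is by family, and the substrate of each gene was not checked. Of the 20, 3 rose and 1 fell against EMEM (15% and 5%, beside 10% and 12.1% of all genes). The median of the 20 was −0.05 on the log2 scale. SLC35D2, which brings UDP-N-acetylglucosamine into the Golgi, had 142, 138 and 167 CPM in Plasmax, 104, 103 and 102 CPM in HGDMEM, 113, 119 and 134 CPM in LGDMEM and 93.7, 127 and 113 CPM in EMEM. Plasmax was above every other library. It rose against EMEM (log2 fold change 0.42 with an SE of 0.14, adjusted p = 0.0348) and HGDMEM (0.53, adjusted p = 0.00748), with 0.29 (adjusted p = 0.152) against LGDMEM. Against EMEM the call was lost without Plasmax 1, Plasmax 3, EMEM 1 or EMEM 3 (adjusted p between 0.0548 and 0.167). SLC35F2 had 33, 43.4 and 40.9 CPM in Plasmax, 21, 15.4 and 18.2 CPM in HGDMEM, 33.8, 34 and 27.6 CPM in LGDMEM and 22.3, 28.5 and 21.2 CPM in EMEM, so that Plasmax overlapped LGDMEM only. It rose against EMEM (log2 fold change 0.70 with an SE of 0.20, adjusted p = 0.0171) and HGDMEM (1.10, adjusted p = 0.000531), with 0.30 (adjusted p = 0.310) against LGDMEM. The EMEM call was lost without Plasmax 2, Plasmax 3, EMEM 1 or EMEM 3 (adjusted p between 0.0520 and 0.0761). SLC35E2B had 52.7, 51.4 and 67.2 CPM in Plasmax, 38.3, 41.1 and 36.6 CPM in HGDMEM, 36.3, 39.1 and 45.1 CPM in LGDMEM and 30.3, 45.9 and 34.5 CPM in EMEM, again highest in Plasmax without overlap. It rose against EMEM (log2 fold change 0.62 with an SE of 0.18, adjusted p = 0.0202), a call lost without Plasmax 3, EMEM 1 or EMEM 3 (adjusted p between 0.0761 and 0.102). Against HGDMEM it also rose (0.56, adjusted p = 0.0287), a call lost without Plasmax 3 or any single HGDMEM library (adjusted p between 0.0513 and 0.138), and against LGDMEM the difference was 0.51 (adjusted p = 0.0569). Its reads may be split with the near-identical SLC35E2A. SLC35C2, which acts in the fucosylation of Notch, fell against EMEM (−0.58, adjusted p = 0.0265) at 27.6 ± 5.34 CPM in Plasmax and 41.4 ± 2.56 CPM in EMEM, a call lost without Plasmax 3, EMEM 1 or EMEM 3 (adjusted p between 0.0589 and 0.121). In other comparisons SLC35B3, which brings the sulphate donor PAPS into the Golgi, rose against HGDMEM (0.77, adjusted p = 0.0417), a call lost without Plasmax 2, Plasmax 3, HGDMEM 1 or HGDMEM 3, and with library size as the only scaling (adjusted p between 0.0517 and 0.169). SLC35F6 rose against HGDMEM (0.41, adjusted p = 0.0447) and LGDMEM (0.42, adjusted p = 0.0499), calls lost without any single Plasmax library or any single HGDMEM library, and with library size as the only scaling (adjusted p between 0.0562 and 0.123) for HGDMEM, and without any single Plasmax library, LGDMEM 1 or LGDMEM 2, and under RLE scaling, under the replicate block and in a fit to the 2 media alone (adjusted p between 0.0503 and 0.185) for LGDMEM. SLC35B2, the other PAPS carrier, fell against HGDMEM (−0.41, adjusted p = 0.0425), a call lost without Plasmax 2, Plasmax 3 or any single HGDMEM library (adjusted p between 0.0555 and 0.176), and SLC35B1 fell against LGDMEM (−0.68, adjusted p = 0.0180), a call lost without Plasmax 3 or LGDMEM 3 (adjusted p between 0.0846 and 0.130).

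The vesicular and lysosomal carriers had 1 fall among 4 against EMEM (25%, beside 12.1% of all genes). SLC17A9, the most abundant of all 154 genes, loads ATP into vesicles and lysosomes, and had 292, 199.8 and 190.4 CPM in Plasmax, 351, 346 and 377 CPM in HGDMEM, 349.8, 329 and 352 CPM in LGDMEM and 291, 361 and 336 CPM in EMEM. Plasmax 1 overlapped EMEM 1 and lay below both DMEM media. It fell against EMEM (log2 fold change −0.53 with an SE of 0.14, adjusted p = 0.0128), LGDMEM (−0.60, adjusted p = 0.00645) and HGDMEM (−0.65, adjusted p = 0.00252). Its call against EMEM was lost without Plasmax 2, Plasmax 3 or EMEM 2 (adjusted p between 0.0537 and 0.0746).

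Among the 8 symbols that are not carriers, the scaffold proteins SLC9A3R1 and SLC9A3R2 (NHERF1 and NHERF2), which tether carriers and channels under the apical membrane, both fell against EMEM. SLC9A3R1 had 80.3, 110.1 and 71.3 CPM in Plasmax, 144, 126 and 146 CPM in HGDMEM, 145, 122 and 131 CPM in LGDMEM and 145, 121 and 126 CPM in EMEM. The Plasmax libraries were below all others, and it fell against EMEM (log2 fold change −0.58 with an SE of 0.15, adjusted p = 0.0112), LGDMEM (−0.60, adjusted p = 0.00945) and HGDMEM (−0.67, adjusted p = 0.00343). The difference from EMEM lost its call without Plasmax 1, Plasmax 3 or EMEM 1 (adjusted p between 0.0508 and 0.0661), and the LGDMEM call without Plasmax 3 (adjusted p = 0.0594). SLC9A3R2 had 14, 17.3 and 11.4 CPM in Plasmax, 14.1, 8.28 and 10.2 CPM in HGDMEM, 7.32, 11.4 and 11.5 CPM in LGDMEM and 17.5, 53.8 and 21.5 CPM in EMEM. Here EMEM was high and Plasmax overlapped both DMEM media. It fell against EMEM (log2 fold change −1.13 with an SE of 0.36, adjusted p = 0.0293), with 0.49 (adjusted p = 0.390) against LGDMEM and 0.40 (adjusted p = 0.471) against HGDMEM. EMEM 2 was far above the other EMEM libraries, and without it the difference was −0.45, adjusted p = 0.352. The call was lost without Plasmax 1, Plasmax 3 or EMEM 2, and under limma voom (adjusted p between 0.0504 and 0.352).

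Of 22 proteins known to partner or regulate solute carriers, 19 had rows under their listed symbols, and of these 3 rose and 2 fell in Plasmax against EMEM. These are 15.8% and 10.5% of the 19, where 10% and 12.1% of all genes rose and fell. NHERF1 and NHERF2 of the same list are the rows SLC9A3R1 and SLC9A3R2 described above, which both fell. The kinase SGK1, which raises the surface amount of many carriers, fell by 1.77 on the log2 scale (SE 0.34, adjusted p = 0.00101), and HNF4A, a regulator of liver-specific carriers, fell by 0.44 (SE 0.16, adjusted p = 0.0493). TXNIP, an arrestin that takes glucose carriers off the surface, rose by 3.02 (SE 0.31, adjusted p = 1.91e-06). NEDD4L, a ubiquitin ligase that removes carriers from the membrane, rose by 0.37 (SE 0.11, adjusted p = 0.0191), and WNK1, a chloride-sensing kinase upstream of the SLC12 family, rose by 0.46 (SE 0.16, adjusted p = 0.0486). BSG, the partner of MCT1, was not called. Against LGDMEM 2 of the 19 rose and 4 fell, where 9.48% and 11.7% of all genes did. Against HGDMEM it was 2 and 4 as well, where 12.8% and 14.1% did. In both, NEDD4L and TXNIP rose and SGK1 and HNF4A fell. NR1H4 fell there too (−1.09, adjusted p = 0.00436 and −1.02, adjusted p = 0.00521), as did NR0B2 (−1.14, adjusted p = 0.00798 and −1.06, adjusted p = 0.0102). WNK1 was not called in either (adjusted p = 0.0506 and 0.0762). TXNIP also differed between the other media. It was lower in LGDMEM than in EMEM (−3.26, adjusted p = 0.00126) and higher in HGDMEM than in LGDMEM (3.44, adjusted p = 0.00057). In HGDMEM against EMEM TXNIP was not called (0.18, adjusted p = 0.953). Among the other solute carriers of the table, 8 rose and 3 fell in Plasmax against EMEM of the 16 left out by name (50% and 18.75%). Of 41 SLC25 symbols 3 rose and 7 fell (7.32% and 17.1%), and of 3 SLCO genes 0 rose and 1 fell (0% and 33.3%). Over all genes 10% rose and 12.1% fell. No difference between these sets and the 154 genes was tested.

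Between the 3 media other than Plasmax none of the 154 genes passed the threshold. In LGDMEM against EMEM 0 were called, where 0.0731% of all genes were (0.0183% higher and 0.0548% lower in LGDMEM). In HGDMEM against EMEM 0 were called, where 0.164% of all genes were (0.0365% higher and 0.128% lower in HGDMEM), and in HGDMEM against LGDMEM 0, where 0.064% were (0.0183% higher and 0.0457% lower in HGDMEM). At an unadjusted p under 0.05 edgeR gave 21 of the 154 in LGDMEM against EMEM, 12 in HGDMEM against EMEM and 14 in HGDMEM against LGDMEM. These are 13.6%, 7.79% and 9.09% of the 154, beside 7.91%, 7.58% and 7.86% of all genes. DESeq2 gave 24, 11 and 14 and limma voom 21, 12 and 12. DESeq2 called 4 of the 154 in LGDMEM against EMEM and 3 in HGDMEM against EMEM at an adjusted p under 0.05.

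The genes below were chosen after their values were seen, for their differences between the DMEM media and EMEM, and not all were near a call. SLC13A3 was lower in both DMEM media than in EMEM without overlap, with a log2 fold change of −0.80 (adjusted p = 0.0502) in HGDMEM and −0.68 (adjusted p = 0.135) in LGDMEM. SLC20A1 was higher in LGDMEM, at 154, 235 and 176 CPM in LGDMEM and 115, 116 and 119.7 CPM in EMEM (0.69, adjusted p = 0.0926). SLC6A8 was also higher there, at 23.2, 32.8 and 47.3 CPM in LGDMEM and 13.1, 11.4 and 16.4 CPM in EMEM (1.34, adjusted p = 0.112). SLC6A14 was higher in HGDMEM than in EMEM (1.09, adjusted p = 0.102). With the replicate number as a block in the fit to all 12 libraries it was called (1.12, SE 0.20, adjusted p = 0.0232). No source used here says that equal numbers mark a shared culture or day. SLC9A3R2 was lower in HGDMEM (−1.52, adjusted p = 0.114) and LGDMEM (−1.62, adjusted p = 0.112) than in EMEM. SLC38A4, a liver carrier of neutral and cationic amino acids, was scarce, with 1.65, 0.569 and 3.31 CPM in Plasmax, 1.69, 1.99 and 1.27 CPM in HGDMEM, 1.26, 1.77 and 3.17 CPM in LGDMEM and 8.25, 4.27 and 5.68 CPM in EMEM. EMEM lay above all other libraries, and the log2 fold change was −1.71 (adjusted p = 0.0599) in Plasmax, −1.85 (adjusted p = 0.418) in HGDMEM and −1.53 (adjusted p = 0.557) in LGDMEM against EMEM.

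**Figure D4:**
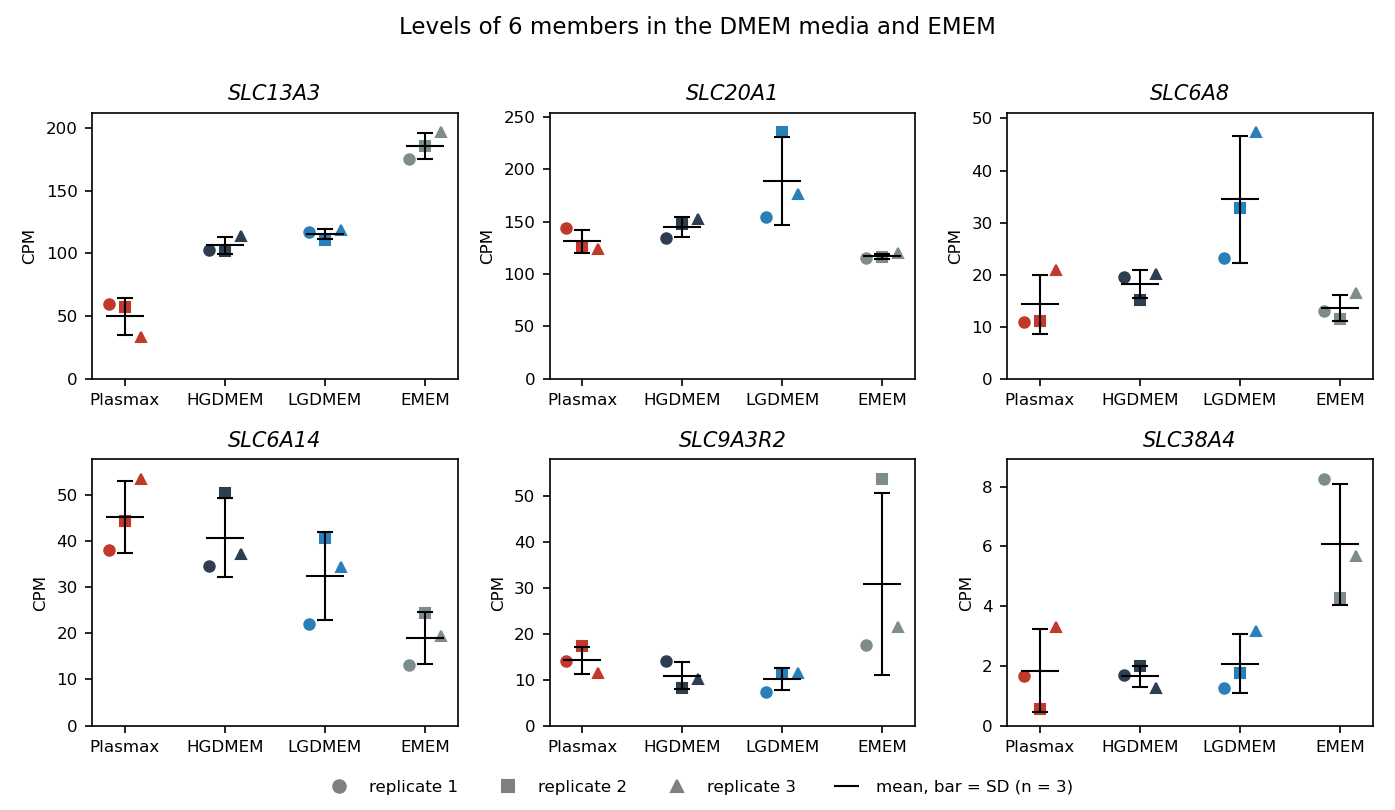
Level of 6 genes (CPM, linear axes starting at 0) in each library, chosen after their values were seen for their differences between the DMEM media and EMEM; symbols mark replicates, and the line and bar give mean and SD of 3 libraries. SLC13A3, SLC9A3R2 and SLC38A4 are highest in EMEM, SLC6A14 is lowest there, and SLC20A1 and SLC6A8 are highest in LGDMEM; no difference among HGDMEM, LGDMEM and EMEM passed the threshold.

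Of the 30 genes called in Plasmax against EMEM, 10 kept their call in each of the 15 alternative settings, of which 6 each left out a library and 1, the fit with no filter, could change nothing because the filter had removed 0 genes: SLC6A14, SLC7A2, SLC16A1-AS1 and SLC23A2, which rose, and SLC2A4RG, SLC13A3, SLC23A1, SLC29A4, SLC37A4 and SLC39A1, which fell. Against HGDMEM 18 of 42 calls and against LGDMEM 11 of 27 did so.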

How the data were processed

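Counts of 3′ mRNA reads per gene were made and deposited by the authors as 1 table of 11546 genes by 12 libraries; per the submitters' processing notes, STAR 2.7.5b, featureCounts 1.6.3, limma 3.40.6, cutadapt 1.16 and FastQC 0.72 were used, with hg19, in roles not stated. Every row of the table reached 2.585 CPM in at least 3 libraries, so genes of lower count are not in it; the strand setting of counting is not given in the sources used here, and counts were used as deposited. The 601 rows without a symbol (2.92% to 3.71% of counts) were left out, which left 3995365 to 5840057 counts per library. Libraries were grouped by the medium in their labels.

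Here edgeR 4.0.16 (R 4.3.3) was fitted to the 10945 named genes of all 12 libraries with TMM scaling, a term for medium and a quasi-likelihood F-test. The code was also run on simulated counts with the same spread for every gene and no library set apart. That run cannot give the error rate on these data. P-values were adjusted by Benjamini-Hochberg over all 10945 genes, with a threshold of 0.05. The standard error (SE) of a log2 fold change was derived from its F statistic. Alternatives were RLE, upper-quartile or no composition scaling, a mean of at least 5 CPM, no filter, DESeq2 1.42.0, limma voom 3.58.1, the replicate number as a block, a fit to 2 media, and each library left out. A call is said to be lost in a setting where its adjusted p is 0.05 or more there.

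Values in every library were given by rule for genes called in Plasmax against EMEM that averaged 10 CPM or more and whose groups did not overlap (at most the 12 largest rises and 12 largest falls), and the 8 most abundant genes were named; other genes were named after their values were seen. The genes, substrate groups and lists were chosen with earlier results of these data known. The labels do not say whether equal replicate numbers mark a shared culture or day. Deviations of equally numbered libraries were weakly correlated for HGDMEM with EMEM (0.186, 0.11 and 0.124 over the 4366 genes with a mean log2 CPM above 5). The same held for HGDMEM with LGDMEM (0.246, 0.165 and 0.21). Over all genes these were lower (0.128, 0.0669 and 0.0480 for HGDMEM with EMEM). For LGDMEM with EMEM the values were 0.325, 0.193 and −0.0121 over the 4366 genes. The replicate number was not in the main fit, so no comparison was paired there. It entered only in the alternative with the replicate number as a block.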

Additional observations from a re-analysis of the deposited data

How the results depend on the processing

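DESeq2 called 4 genes in LGDMEM against EMEM (SLC6A8, SLC9A3R2, SLC13A3 and SLC20A1) and 3 in HGDMEM against EMEM (SLC6A14, SLC9A3R2 and SLC13A3), where edgeR called 0. In HGDMEM against EMEM, limma voom called 1, a fit to the 2 media 1, and a fit without LGDMEM replicate 3, added after seeing the data, 1, each time SLC13A3. The replicate block called 1 gene in HGDMEM against EMEM, SLC6A14, and 1 in LGDMEM against EMEM, SLC6A8 (1.32, SE 0.24, adjusted p = 0.0339). A fit to 2 media raised the rises against EMEM to 13 and lowered those against LGDMEM to 5. The causes were not tested.

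With 1 library left out at a time, 4 to 8 genes rose and 11 to 17 fell against EMEM, 4 to 9 rose against LGDMEM, 8 to 12 rose and 15 to 20 fell against HGDMEM, and 19 to 33 differed over the 4 media. Without LGDMEM 3, added after seeing the data and in neither medium compared, 11 rose and 23 fell against EMEM, and 19 rose and 26 fell against HGDMEM. Rises against EMEM were 4 without Plasmax 3 and 5 without EMEM 1, and falls 14 without Plasmax 3, 11 without EMEM 1 and 14 without EMEM 2. Rises against LGDMEM were 4 without Plasmax 2, 5 without Plasmax 3 and 4 without LGDMEM 1. Rises against HGDMEM were 10 without Plasmax 2, 10 without Plasmax 3, 8 without HGDMEM 1 and 11 without HGDMEM 3, and falls 15 without Plasmax 1. Over the 4 media the count was 19 without Plasmax 1 and 20 without Plasmax 3. LGDMEM against EMEM gave 0 to 2, with 2 without LGDMEM 1, and HGDMEM against EMEM 0 with any library of these media left out. SLC16A1, not called, changed sign, its value running between −0.108 and 0.0343, with the highest without Plasmax 3. At 4131093 to 6015796 counts a library, the 47 genes under 10 CPM rest on few reads.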
